A study of Mus musculus with 10 samples.

Results

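Calcineurin is a phosphatase that calcium and calmodulin switch on, and the genes described here encode its subunits, the NFAT transcription factors it acts on, and proteins that inhibit it. They were 10 genes picked by name: Ppp3ca, Ppp3cb and Ppp3r1 (subunits), Nfatc1, Nfatc3 and Nfatc4 (NFAT factors), and Rcan1, Rcan2, Cabin1 and Tbc1d10c (inhibitors). All 10 had an entry of their own among the 23303 gene entries of the expression table. They were picked with earlier results of the CKD and Sham comparison in view, so their differences between the groups describe these mice and support nothing beyond that. The adjusted p-values printed for them give their place in a fit over all tested genes.

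The samples were left ventricles of male mice of the strain 129X1/SvJ, 5 with the surgery entry CKD (chronic kidney disease) and 5 with the entry Sham, with 1 RNA sequencing library per mouse. The sources used here give neither the age of the mice nor the way CKD was produced. The numbers 1 to 5 given here to the mice of each group follow the order of the libraries. Equal numbers in the 2 groups do not pair mice. Values are FPKM, fragments scaled to transcript length and library size, so that levels of different genes can be set side by side. Heart muscle was plain in every library: the 10 cardiomyocyte markers summed to between 65616 and 84464 FPKM.

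In heart muscle, active calcineurin removes phosphates from NFAT factors, which then enter the nucleus and act with partners such as GATA4 and MEF2 on genes of cardiac growth. Calcineurin is a heterodimer of a catalytic A subunit and the calcium-binding B subunit. Kinases return NFAT to the cytoplasm, and several inhibitors and Z-disc anchors limit or place the phosphatase. Rcan1 is itself a target: transcripts that start at an internal promoter of the gene are known to be induced through NFAT, so that the protein feeds back on calcineurin.

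Both starts of Rcan1 in RefSeq are shown because the table holds 1 value per gene and does not separate their transcripts. Rcan1 lies on the minus strand of chromosome 16, from 92391951 to 92466169 in GRCm38, and RefSeq (GRCm38.p6) places its starts at 92466169 and 92400078. In GENCODE M21 the gene reaches 92470867, and no window was taken there. Each sequence is the 250 bases before the start, 5′ to 3′ on the strand of the gene, and capitals mark the NFAT core GGAAA or, on the other strand, TTTCC.
Rcan1 upstream start, chr16:92466170-92466419, minus strand: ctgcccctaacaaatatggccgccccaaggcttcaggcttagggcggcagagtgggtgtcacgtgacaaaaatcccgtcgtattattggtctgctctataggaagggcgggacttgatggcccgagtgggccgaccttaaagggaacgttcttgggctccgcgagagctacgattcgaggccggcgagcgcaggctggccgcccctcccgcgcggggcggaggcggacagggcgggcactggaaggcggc
Rcan1 internal start, chr16:92400079-92400328, minus strand: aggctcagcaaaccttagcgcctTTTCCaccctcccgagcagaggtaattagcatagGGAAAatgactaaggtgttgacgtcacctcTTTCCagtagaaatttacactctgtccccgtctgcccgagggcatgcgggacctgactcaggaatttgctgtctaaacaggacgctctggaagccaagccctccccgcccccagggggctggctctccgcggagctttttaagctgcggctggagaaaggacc
The window before the internal start held 3 NFAT cores, 227, 193 and 163 bases before the start counted from the first base of each match. The window before the upstream start held 0. At least 1 core was found in 55.6% of all 32851 promoter windows of this length and at least 3 in 6.39%. The window of the internal start also held the AP-1 element TGACTCA, 110 bases before the start. AP-1 proteins are known to bind beside NFAT, and this element was looked for after the sequence had been read. A window of Rcan2 held it as well, 25 bases before its start. TGACTCA or its reverse complement TGAGTCA was present in 4.46% of all windows, and no core overlapped it.

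Of the 10 members, 7 had promoter windows in the RefSeq table, 11 windows in all, and Ppp3ca, Nfatc1 and Tbc1d10c had none. Besides the internal start of Rcan1, the windows of Ppp3cb and Nfatc4 held 3 cores each. One window of Rcan2 held 2 and one of Nfatc3 held 1, and the remaining 6 windows held 0. A match is a stretch of letters and does not show that a factor binds there.

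In Sham ventricles the inhibitor Rcan2 had the highest level, 208 ± 14.0 FPKM (mean ± SD, n = 5 here and below), above 96.6% of the tested genes. Rcan1 followed with 50.8 ± 12.8 and the B subunit Ppp3r1 with 38.8 ± 4.96 FPKM, and the values of these 2 genes overlapped among the Sham mice. The catalytic genes Ppp3cb and Ppp3ca came next, at 25.8 ± 4.20 and 25.7 ± 1.01 FPKM, and could not be ordered. Below them, Tbc1d10c (8.18 ± 0.455), Nfatc3 (7.07 ± 0.575), Cabin1 (6.60 ± 0.706) and Nfatc1 (5.37 ± 0.820 FPKM) formed a row in which each overlapped the next. Nfatc4 had the lowest level at 1.62 ± 0.444 FPKM. In CKD the order by mean differed in 3 places. Ppp3ca came before Ppp3cb, with overlapping values. Cabin1 came before Nfatc3, without overlap between them. Tbc1d10c, at 3.94 ± 0.960 FPKM, lay below all values of Cabin1, Nfatc3 and Nfatc1 and above all of Nfatc4.

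**Figure D1:**
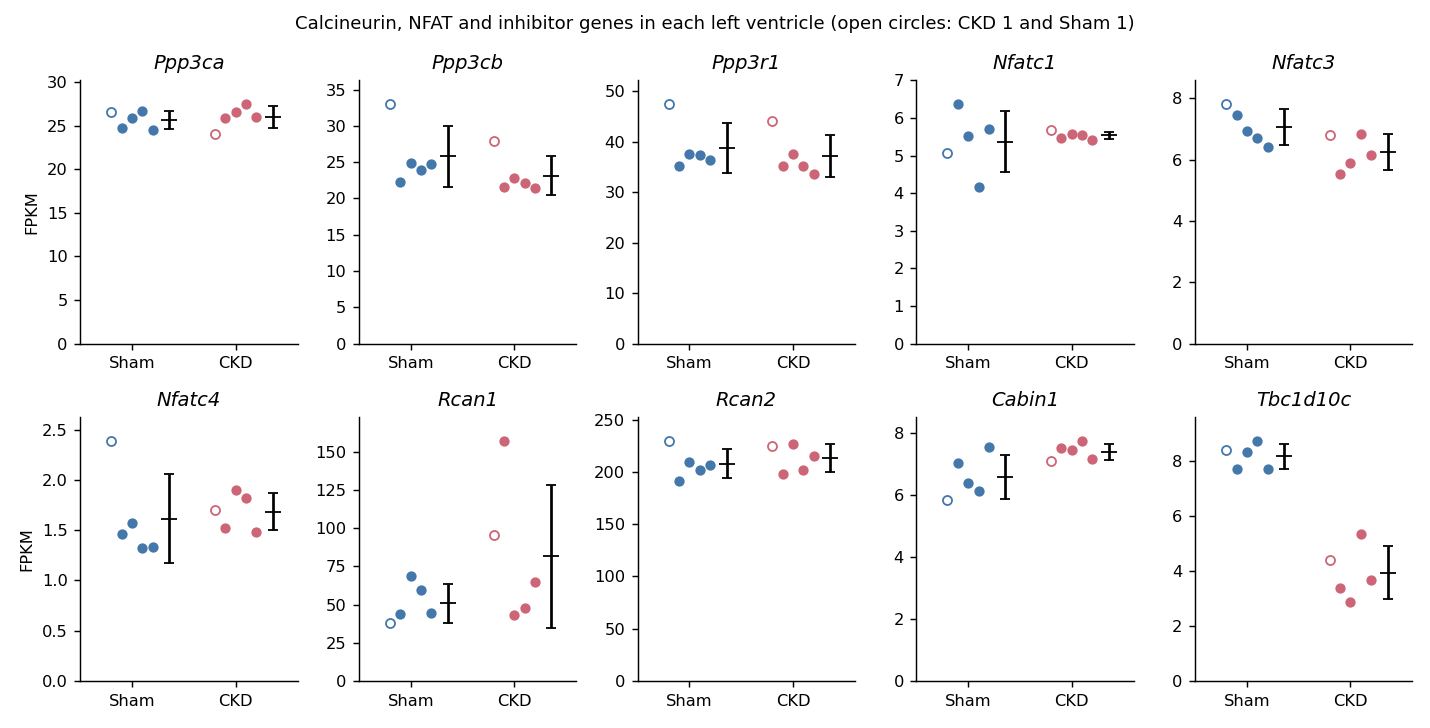
FPKM of the 10 genes in each mouse (points; blue Sham, red CKD, 5 each; open circles are CKD 1 and Sham 1), with the group mean and SD beside the points and each vertical axis starting at 0. Tbc1d10c is the gene whose groups do not overlap, with CKD between 2.88 and 5.34 and Sham between 7.70 and 8.74 FPKM; the open circles of Ppp3cb and Ppp3r1 lie above the other points of their group.

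CKD 1 and Sham 1 stood apart in how their values were built. Among genes of at most 0.2 FPKM, the ratio to Sham 2 took a single value, to 3 decimals, for 26.1% to 30.7% of the genes in each of the other 7 libraries. It did so for 0.436% of them in CKD 1 and 0.455% in Sham 1. The step shared by the low values of the other 8 libraries was thus not found in these 2, and the sources used here do not say why. They also had the lowest sums of cardiomyocyte markers. These were 65616 FPKM for CKD 1 and 69226 for Sham 1, while the other 8 libraries lay between 80031 and 84464. The difference of each member is given with and without both libraries. The summed FPKM of the libraries ranged from 570509 to 605007, and the read number behind a value is not known.

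Of the 10 members, 1 passed the threshold (limma, Benjamini-Hochberg adjusted p under 0.05 over 11651 tested genes) and 9 did not. Among all tested genes 5.29% passed, 3.17% higher and 2.12% lower in CKD. The groups did not overlap for 1 member, where 7.28% of the tested genes had such groups, 4.1% higher and 3.18% lower in CKD. The median difference of the members was 0.03 on the log2 scale, against -0.0035 over all tested genes. With CKD 1 and Sham 1 both left out, Tbc1d10c was again the 1 member that passed (4.79% of all tested genes) and the 1 member without overlap (13.1% of all tested genes). These shares stand beside the counts as a description, since the members were picked with this comparison known.

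**Figure D2:**
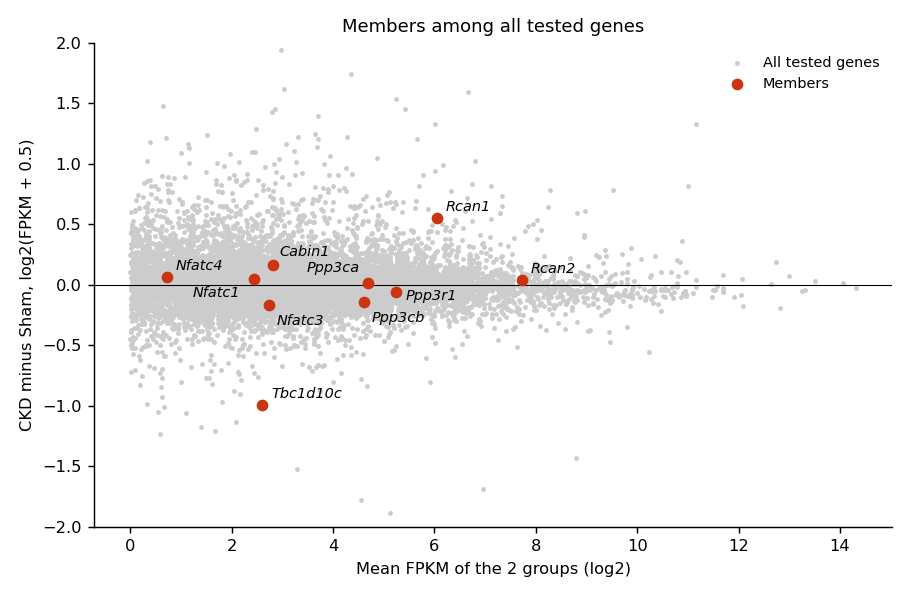
Difference between CKD and Sham on the log2(FPKM + 0.5) scale against the mean FPKM of the 2 groups (log2) for the tested genes (grey; 7 genes lie beyond the vertical axis) and the 10 members (red). Tbc1d10c at -0.99 and Rcan1 at 0.55 lie away from the other 8 members, which sit between -0.17 and 0.16.

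The member that fell was Tbc1d10c, which encodes carabin, an inhibitor of calcineurin and of Ras signalling known from lymphocytes and also described in heart muscle. It was at 8.40, 7.70, 8.34, 8.74 and 7.71 FPKM in Sham 1 to 5 and at 4.40, 3.37, 2.88, 5.34 and 3.69 FPKM in CKD 1 to 5. Every CKD mouse was below every Sham mouse, and the highest CKD value, in CKD 4, was 5.34 against a lowest Sham value of 7.70. By mean log2 values, the level in Sham was 1.99-fold that in CKD (log2 -0.99, SE 0.13, limma adjusted p = 0.00164). Its absolute difference was above that of 99.5% of the tested genes. The difference was -1.03 without both CKD 1 and Sham 1 (limma adjusted p = 0.00833). Relative to Cabin1, another calcineurin inhibitor with a similar level in Sham, Tbc1d10c was at 1.26 ± 0.192 in Sham and 0.531 ± 0.123 in CKD. This ratio uses the same Tbc1d10c values and a gene with a log2 difference of 0.16, so it is no separate result. It was not tested.

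Markers of lymphocytes, which are known to express Tbc1d10c, were measured in the same libraries. Of 20 listed markers of T, B and NK cells 19 were in the table, and the CKD mean was below the Sham mean for all 19. Their levels were low: the highest single value was 2.42 FPKM, and 1 of them (Cd79b, a chain of the B cell receptor, log2 -0.70, limma adjusted p = 0.129) reached the mean of 1 FPKM needed for testing. Among all 11651 tested genes 5957 had a log2 difference below 0, and no such share was taken for genes as low as these markers. The 19 markers summed to 8.98, 10.5, 3.88, 10.8 and 6.15 FPKM in Sham 1 to 5 and to 5.44, 3.86, 4.00, 5.83 and 3.31 in CKD 1 to 5. Sham 3 thus lay within the CKD range of marker sums, while its Tbc1d10c level of 8.34 FPKM lay within the range of the other Sham mice. Among the CKD mice, CKD 4 and CKD 1 had the highest marker sums (5.83 and 5.44) and also the highest Tbc1d10c levels (5.34 and 4.40 FPKM). By list, the T cell markers ranged from 1.51 to 4.33 FPKM in Sham and 1.47 to 2.49 in CKD, the B cell markers from 1.82 to 5.69 and 1.32 to 3.00, and the NK cell markers from 0.550 to 1.89 and 0.524 to 0.975. Between 0 and 1 of the 19 markers were at 0 in a Sham library and between 0 and 4 in a CKD library. The part of lymphocytes in the difference of Tbc1d10c was not tested. In whole ventricle, fewer cells of a type and less RNA per cell cannot be told apart.

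**Figure D3:**
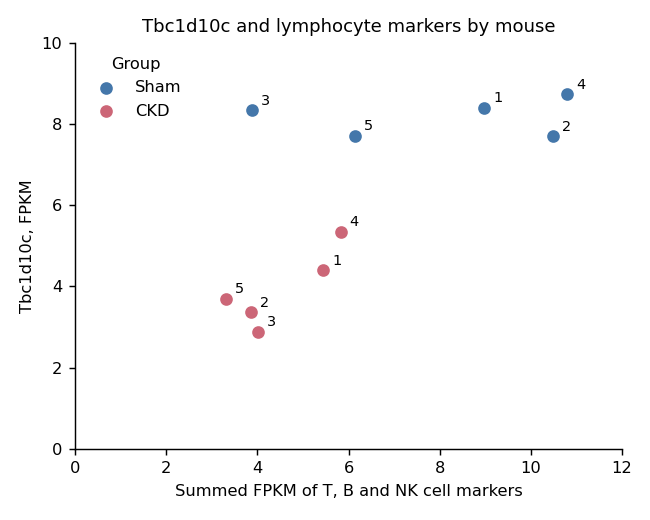
Tbc1d10c (FPKM, vertical axis) against the summed FPKM of 19 T, B and NK cell markers (horizontal axis) in each mouse, numbered by its name within the group (blue Sham, red CKD). Sham 3 has a marker sum of 3.88, among the CKD mice, with 8.34 FPKM of Tbc1d10c, and CKD 4 and CKD 1 are the highest CKD mice on both axes.

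Markers of leukocytes in general and of macrophages had higher summed levels in CKD, where Tbc1d10c was lower. The 5 pan-leukocyte markers summed to 18.0 to 23.5 FPKM in Sham and 24.1 to 39.2 in CKD. Of these, Coro1a, a leukocyte actin-binding protein, rose (log2 0.59, limma adjusted p = 0.0394), with groups that overlapped. The other 4 pan-leukocyte markers did not pass. The 5 macrophage markers in the table summed to 98.7 to 112 FPKM in Sham and 152 to 223 in CKD, and 4 of them rose. Of the fibroblast markers 3 of 6 rose, and of the endothelial and smooth muscle markers 0 of 5 and 0 of 4 passed. Over all tested genes, 3.17% passed as higher and 2.12% as lower in CKD.

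Tbc1d10c lies on the minus strand of chromosome 19 from 4184357 to 4191195 (RefSeq, GRCm38.p6). Its nearest neighbour, Ppp1ca, a catalytic subunit of protein phosphatase 1, begins 979 bases beyond its start and was at 209 ± 4.05 FPKM in Sham and 209 ± 5.26 in CKD (log2 -0.00045, SE 0.04). On the other side the nearest gene is Gm17552, a long noncoding RNA 5309 bases away, which has no entry in the table. The next gene with values there, 8878 bases away and on the same strand, is Carns1, the enzyme that makes carnosine. Carns1 was at 22.4, 22.3, 20.3, 22.3 and 23.2 FPKM in Sham 1 to 5 and at 16.5, 14.5, 15.4, 18.5 and 13.0 in CKD 1 to 5. It fell by 0.50 on the log2 scale (SE 0.08, limma adjusted p = 0.00618), and its groups did not overlap. GENCODE M21 annotates a further transcript on that strand, AC109138.8, from 4168742 to 4191047, which spans ground of both genes and has no entry in the table. The sources used here do not say how reads in shared sequence were assigned.

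The 5 tested genes whose log2 levels over the 10 libraries were most like those of Tbc1d10c were Ano10 (an anoctamin, Pearson r = 0.98), Aldh1l2 (a mitochondrial folate enzyme, 0.97), Klhdc1 (a kelch-domain protein, 0.97), Hdac11 (a histone deacetylase, 0.97) and Pla2g4e (a phospholipase A2, 0.97). All 5 were lower in CKD, by -0.38 to -0.84 on the log2 scale. That direction follows from how they were chosen, since the groups of Tbc1d10c did not overlap. After the group means were subtracted, the r of these 5 genes with Tbc1d10c was 0.77 to 0.82 over the same 10 libraries. They had been picked for their r over these libraries, so that value is no separate result. Ranked by likeness after that subtraction, the first 5 genes were Tmie (r = 0.92), Phkg2, Kcna7, Cdk2ap2 and Nudcd2 (0.86 to 0.87). None of these 5 passed between the groups, with differences from -0.09 to 0.09 on the log2 scale. These values describe 10 libraries in 2 groups and carry no p.

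Rcan1 had the largest spread of the members among the CKD mice, relative to the mean. It was at 37.8, 43.6, 68.5, 59.5 and 44.4 FPKM in Sham 1 to 5 and at 95.6, 157, 43.5, 48.0 and 64.7 FPKM in CKD 1 to 5. CKD 1 and CKD 2 lay above all Sham mice, and the other 3 CKD mice lay within the Sham range. The SD was 57.3% of the mean in CKD and 25.2% in Sham, where Nfatc4 had the larger relative SD (27.5%). The mean levels were 81.8 ± 46.8 FPKM in CKD and 50.8 ± 12.8 in Sham. By mean log2 values, where the high CKD 2 weighs less, the difference was 0.55 (SE 0.31, 1.46-fold). The gene did not pass (limma adjusted p = 0.361). Without CKD 2 the difference was 0.27, and with CKD 1 and Sham 1 both left out it was 0.35.

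The genes most like Rcan1 over the 10 libraries were Tubb2a (a beta-tubulin, Pearson r = 0.96), Tes (testin, a focal adhesion protein, 0.93), Tubb2b (another beta-tubulin, 0.91), Sh3pxd2b (a podosome scaffold, 0.90) and Eln (elastin, 0.90). None of the 5 passed between the groups (limma adjusted p from 0.128 to 0.442). Their r with Rcan1 was 0.88 to 0.96 after group means were subtracted. The 5 were chosen for their r over these same libraries, so this r is not a separate result. Ranked after that subtraction, the first 5 were Tubb2a (r = 0.96), Wdr74 (0.95), Kctd2 (0.93), Ppap2b (0.92) and Adra1b (0.92). Of these, Kctd2 and Adra1b, an alpha-1 adrenergic receptor, fell in CKD, by 0.25 and 0.68 on the log2 scale (limma adjusted p = 0.0292 and 0.00977).

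Rcan2, a paralogue of Rcan1 on chromosome 17 (43801352 to 44039516), showed no such spread. It ranged from 191 to 230 FPKM in Sham and from 198 to 227 in CKD, where the mean was 213 ± 13.0 FPKM (log2 0.04, SE 0.06; 0.05 with CKD 1 and Sham 1 both left out). In every mouse Rcan2 was above Rcan1, by 3.06 to 6.08 times in Sham and 1.26 to 5.21 times in CKD. Rcan1 made up 14.1% to 24.6% of the summed FPKM of both genes in Sham and 16.1% to 44.2% in CKD, with the highest shares in CKD 2 (44.2%) and CKD 1 (29.8%).

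Cabin1 (chromosome 10, 75646110 to 75764357), which binds calcineurin and also represses MEF2 factors, was at 5.84, 7.06, 6.39, 6.14 and 7.57 FPKM in Sham 1 to 5 and at 7.11, 7.54, 7.45, 7.75 and 7.17 in CKD 1 to 5. Sham 5 lay inside the CKD range and the other 4 Sham mice below it. The difference was 0.16 (log2, SE 0.07, limma adjusted p = 0.257), and it was 0.13 with CKD 1 and Sham 1 both left out.

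Among the subunits, the catalytic gene Ppp3ca (chromosome 3, 136669714 to 136937727, RefSeq on GRCm38.p6 as for the positions below) was the steadiest member in Sham, with an SD of 3.95% of its mean. It ranged from 24.5 to 26.6 FPKM in Sham and from 24.0 to 27.5 in CKD (log2 0.02, SE 0.05, limma adjusted p = 0.908). With CKD 1, its lowest library, and Sham 1 both left out, the difference was 0.06 (adjusted p = 0.556). Ppp3cb (chromosome 14, 20499364 to 20546573), the catalytic isoform that hypertrophic growth of mouse hearts is known to need, was at 33.1, 22.2, 24.9, 24.0 and 24.8 FPKM in Sham 1 to 5 and at 27.9, 21.5, 22.8, 22.1 and 21.4 in CKD 1 to 5. Sham 1 and CKD 1 were the highest of their groups. The difference was -0.15 (log2, SE 0.11, limma adjusted p = 0.490) with all libraries and -0.12 (SE 0.05, adjusted p = 0.221) without these 2. It was -0.06 with Sham 1 alone left out and -0.21 with CKD 1 alone left out.

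Ppp3r1 (chromosome 11, 17159298 to 17200380), the B subunit expressed outside the testis, had the same 2 libraries on top. It was at 47.6, 35.3, 37.7, 37.4 and 36.3 FPKM in Sham 1 to 5 and at 44.2, 35.2, 37.5, 35.2 and 33.6 in CKD 1 to 5. The groups overlapped, with a difference of -0.06 (log2, SE 0.09, limma adjusted p = 0.776), and -0.05 without CKD 1 and Sham 1. It was 0.01 with Sham 1 alone left out and -0.13 with CKD 1 alone left out. The mean of CKD 1 and Sham 1 was 1.33 times that of the other 8 libraries for Ppp3cb, 1.27 times for Ppp3r1, 1.31 times for Nfatc4 and 0.974 times for Ppp3ca. GENCODE M21 annotates other genes over part of several members: Wdr92 over Ppp3r1 and Gm42822 over Ppp3ca on the same strand, and on the opposite strand 1810062O18Rik over Ppp3cb, Gm46555 over Rcan1 and Esrp2 over Nfatc3. Reads from such stretches cannot be assigned from these values.

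The third catalytic gene, Ppp3cc, whose product is best known from testis, was at 17.8 ± 1.25 FPKM in Sham and 18.7 ± 0.576 in CKD (log2 0.07, SE 0.06, limma adjusted p = 0.563). It made up 23.4% to 28.0% of the summed catalytic FPKM in Sham and 26.0% to 28.4% in CKD. The summed level of the 3 genes was 69.3 ± 5.21 FPKM in Sham and 67.9 ± 2.00 in CKD, and Ppp3r1 stood to this sum as 0.559 ± 0.0302 and 0.546 ± 0.0489. Ppp3r2, the B subunit of testis, was listed at 0 in all Sham libraries and at a mean of 0.0054 FPKM in CKD.

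The ratio of Ppp3ca to Ppp3cb depended on the 2 libraries. It was 0.803, 1.11, 1.04, 1.11 and 0.986 in Sham 1 to 5 and 0.860, 1.20, 1.16, 1.25 and 1.22 in CKD 1 to 5, so that the groups overlapped. With CKD 1 and Sham 1 left out, CKD ranged from 1.16 to 1.25 and Sham from 0.986 to 1.11. In that setting the groups did not overlap for 13.1% of all tested genes. That figure is for levels of single genes, and none was taken for ratios of 2 genes. The ratio of Ppp3ca to Ppp3cb was not tested, since it is built from members.

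**Figure D4:**
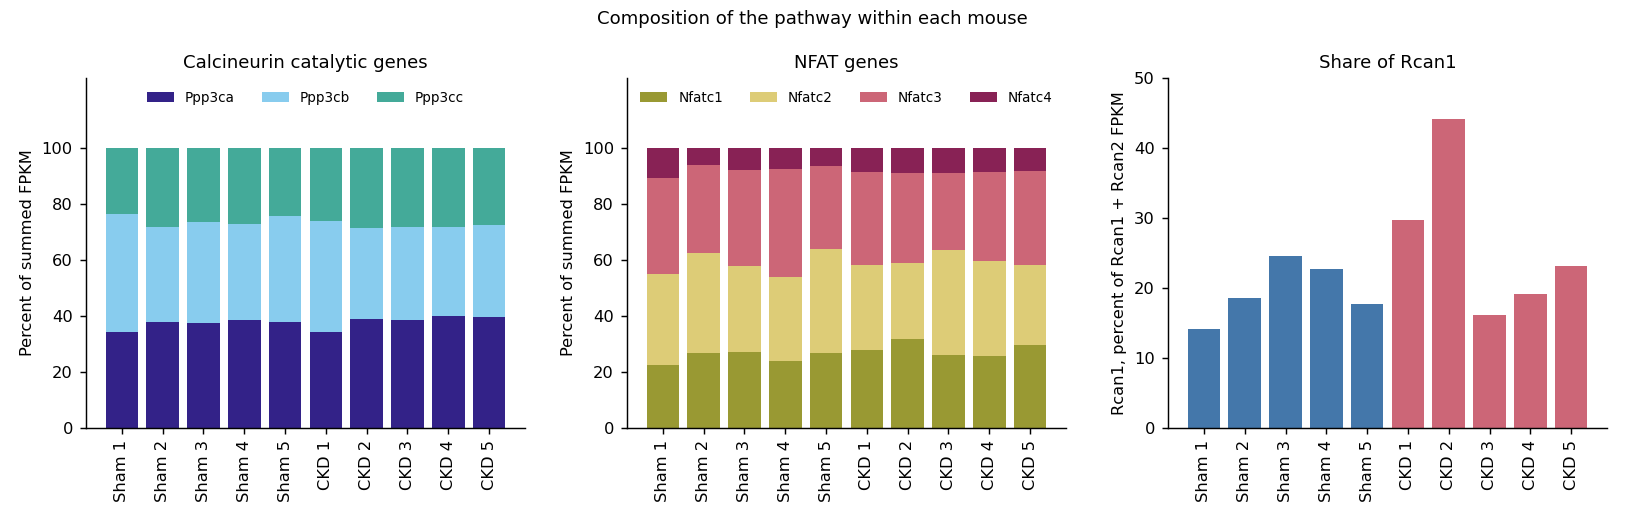
Share of each gene in the summed FPKM of the calcineurin catalytic genes (left) and of Nfatc1 to Nfatc4 (middle), and of Rcan1 in Rcan1 plus Rcan2 (right), as percent in each of the 10 mice. Ppp3cb has its largest shares in Sham 1 (42.5%) and CKD 1 (39.8%), and Rcan1 in CKD 2 (44.2%).

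None of the NFAT genes passed. Nfatc1, known for its part in valve endocardium, ranged from 4.17 to 6.38 FPKM in Sham and from 5.41 to 5.68 in CKD (log2 0.05, SE 0.09; 0.03 with CKD 1 and Sham 1 both left out). Its CKD values lay inside the Sham range. Nfatc3 (chromosome 8, 106058818 to 106130537), a factor needed for full hypertrophy in mouse hearts, was at 7.83, 7.47, 6.95, 6.70 and 6.41 FPKM in Sham 1 to 5 and at 6.81, 5.54, 5.90, 6.85 and 6.15 in CKD 1 to 5. Of the CKD mice, 3 were below all Sham mice (log2 -0.17, SE 0.08, limma adjusted p = 0.267; -0.16 with CKD 1 and Sham 1 both left out).

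Nfatc4 (chromosome 14, 55824795 to 55833943), the factor first described as a partner of GATA4 in the heart, was at 2.39 FPKM in Sham 1 and 1.32 to 1.58 in the other Sham mice, against 1.48 to 1.90 in CKD. The difference was 0.06 (log2, SE 0.13, limma adjusted p = 0.852) with all libraries and 0.18 (SE 0.11, adjusted p = 0.396) without CKD 1 and Sham 1. With 1 library left out it ranged from 0.02 (without Sham 4 or Sham 5) to 0.18 (without Sham 1). It made up 6.13% to 10.5% of the summed FPKM of Nfatc1 to Nfatc4 in Sham and 8.11% to 8.86% in CKD. The 10.5% was that of Sham 1, and with CKD 1 and Sham 1 left out the shares were 6.13% to 7.76% in Sham and 8.11% to 8.86% in CKD, without overlap. With these 2 libraries left out, 13.1% of all tested genes had groups without overlap. That figure is for levels of single genes, and none was taken for shares within a family. The share of Nfatc4 was not tested. Of the NFAT genes outside the 10, Nfatc2 was at 7.10 ± 1.35 and 6.32 ± 1.40 FPKM in Sham and CKD. Nfat5, which responds to osmotic stress and not to calcineurin, was at 8.22 ± 1.57 and 6.42 ± 0.826 (log2 -0.32, SE 0.13, limma adjusted p = 0.197).

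A wider list of 50 pathway genes outside the 10 had 49 in the table and 43 tested, of which 3 rose, 2 fell and 38 did not pass. The background shares were 3.17% and 2.12% as above. The median difference of the 43 was -0.0069 (log2), against -0.0035 over all tested genes, and 11 of them had an unadjusted p under 0.05, where 19.5% of all tested genes did.

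**Figure D5:**
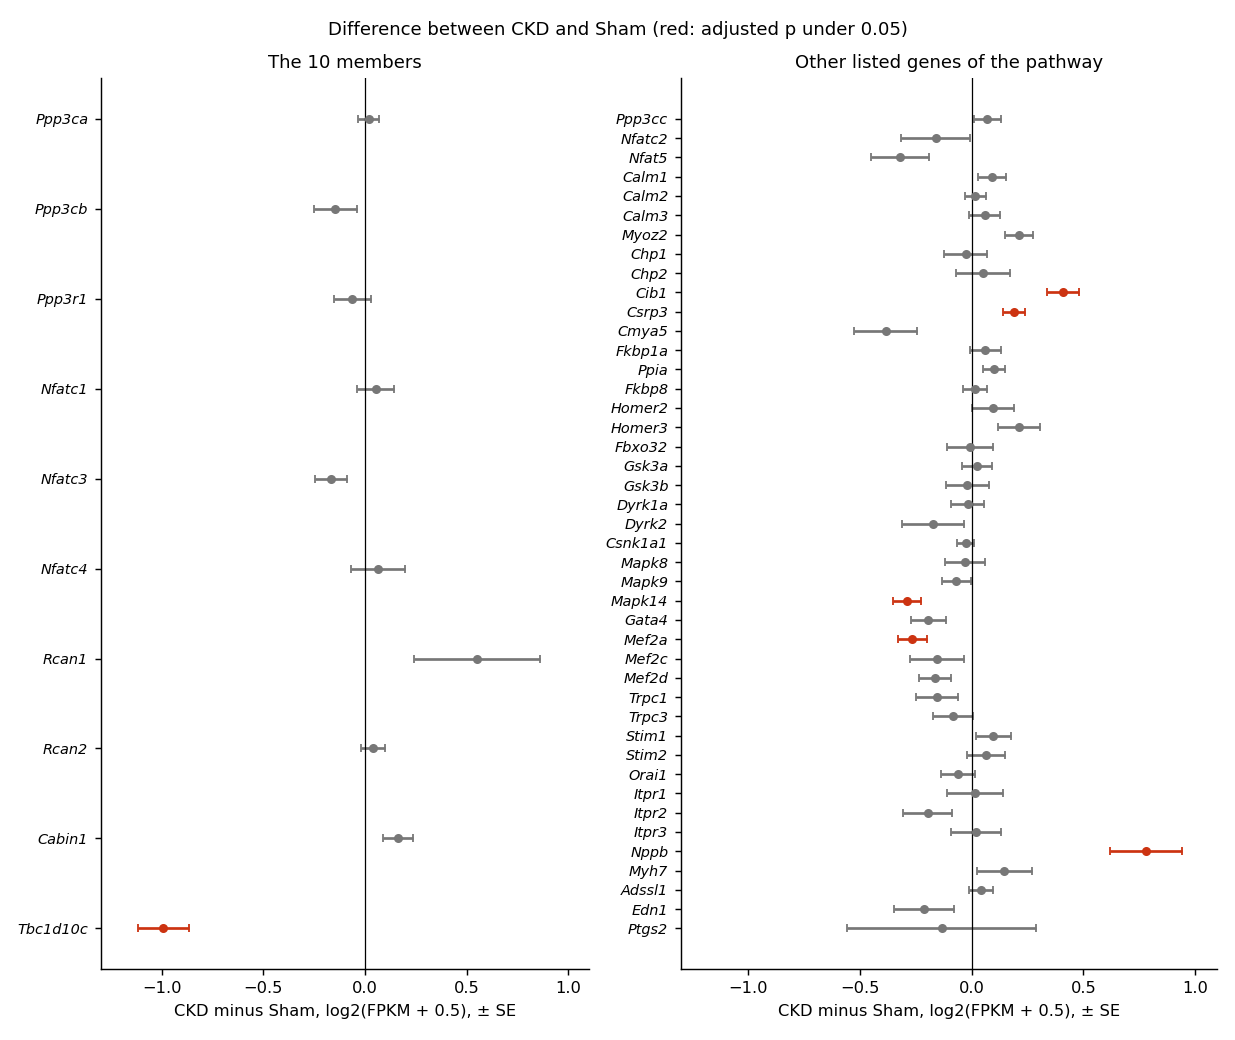
Difference between CKD and Sham (log2(FPKM + 0.5), points, with SE as bars) for the 10 members (left) and the 43 tested genes of the wider pathway list (right); red marks an adjusted p under 0.05. Tbc1d10c at -0.99 is the red point on the left, and Cib1, Csrp3, Mapk14, Mef2a and Nppb are red on the right.

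The 3 that rose included 2 of 12 tested anchors, inhibitors and immunophilins. Cib1, which holds calcineurin at the sarcolemma, ranged from 12.8 to 14.9 FPKM in Sham and from 16.0 to 20.4 in CKD (1.33-fold, log2 0.41, SE 0.07, limma adjusted p = 0.00778). Csrp3, the muscle LIM protein that places calcineurin at the Z-disc, was the most abundant of this role at 1721 ± 85.6 in Sham and 1964 ± 101 FPKM in CKD (1.14-fold, adjusted p = 0.0461). Its call was lost without any 1 library other than CKD 1 (highest adjusted p = 0.109). Myoz2, calsarcin, a Z-disc protein that inhibits calcineurin, had a difference of 0.21 (SE 0.06) and did not pass.

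Nppb, a natriuretic peptide gene on which NFAT and GATA4 are known to act, was the third that rose, from 538 ± 99.4 to 933 ± 225 FPKM (log2 0.78, limma adjusted p = 0.0170), a call that was lost when CKD 1 and Sham 1 were both left out (adjusted p = 0.0525). It was 1 of 5 tested genes of its role. Myh7, Adssl1, Edn1 and Ptgs2 did not pass, with differences from -0.21 to 0.15.

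The 2 that fell were 1 of 8 tested kinases that act on NFAT and 1 of 4 tested nuclear partners. Mapk14, the p38 alpha kinase, which can phosphorylate NFAT factors, ranged from 25.7 to 30.3 FPKM in Sham and from 21.2 to 25.2 in CKD (log2 -0.29, SE 0.06, limma adjusted p = 0.0212). Its call was lost without CKD 2, CKD 3, CKD 5 or Sham 3 (0.0503 to 0.0618). Mef2a, a partner factor, ranged from 38.0 to 48.6 in Sham and from 36.2 to 37.6 FPKM in CKD (log2 -0.26, SE 0.07, adjusted p = 0.0419). That call held with Sham 5 left out and was lost with any other 1 library left out (highest adjusted p = 0.101). It was also lost with CKD 1 and Sham 1 both left out (adjusted p = 0.0840).

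No calmodulin gene and no tested gene of calcium entry or release passed. The 3 calmodulin genes, whose product carries the calcium signal to calcineurin, had differences from 0.02 to 0.09, with Calm2 the most abundant at 126 ± 6.53 and 128 ± 4.57 FPKM. The 8 tested genes of calcium entry and release had differences from -0.20 to 0.10, with Orai1 the most abundant at 11.6 ± 0.929 and 11.1 ± 1.12 FPKM. Of the other kinases that export NFAT, Csnk1a1 had the highest level, 83.1 ± 1.78 FPKM in Sham and 81.6 ± 1.59 in CKD. Gata4, the most abundant nuclear partner, was at 51.1 ± 3.03 and 44.8 ± 5.14 FPKM (log2 -0.19, SE 0.08, limma adjusted p = 0.203).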

How the data were processed

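Per the labels' protocols, left ventricle was kept in RNALater and frozen, and TruSeq mRNA libraries were sequenced as single reads on an Illumina instrument. The deposited table holds FPKM, 1 column per library. STAR 2.4.0f1, Cufflinks 2.1.1, Cuffdiff 2.1.1 and the builds mm10 and hg19 are named in the submitters' processing notes, with no role given. Strand use and the handling of shared reads are not given in the sources used here.

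Values were analysed as log2(FPKM + 0.5), unscaled, for the 11651 genes whose FPKM averaged 1 or more, so folds of low genes are understated. Folds come from the difference of mean log2 values and are not ratios of the printed mean FPKM. CKD was compared with Sham in limma 3.58.1 (R 4.3.3; lmFit, then eBayes with trend), and two-sided p-values were adjusted by Benjamini-Hochberg across the 11651 genes, with 0.05 as threshold. FPKM is not a count, so no count model was used. In a test on simulated data for this comparison (11651 genes) the share of changed genes recovered was 40% for a fold of 1.25, 80% for 1.5 and 92% for 2, and 7 of 163 calls were false. In that simulation 200 genes were changed and the noise was independent between genes. Effects shared by a whole library were not simulated, so these rates may not hold for the real libraries. The labels do not pair mice across groups.

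The members and lists were chosen with earlier results of these data known. Named were the 10 members, listed pathway genes that passed or had the highest level in their role, neighbours of a member that passed, and the 5 genes most like such a member or Rcan1 by Pearson r, before and after subtracting group means. Nfatc2, Ppp3r2, Myoz2, Myh7, Adssl1, Edn1, Ptgs2, Coro1a and Cd79b were named after their values were seen. Rcan3 shares its entry with a small RNA and was not used here. Alternatives changed the pseudocount, filter, scaling or variance model, or left out libraries.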

Additional observations from a re-analysis of the deposited data

Results flagged for a closer look

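In groups of 5 mice, 4 values lay farther from the rest of their group than the 95% limit of Dixon's gap test allows, among 30 sets of 5 (15 genes in 2 groups), where chance gives about 1 in 20. All 4 were in CKD 1 or Sham 1. For Ppp3cb they were 27.9 FPKM in CKD 1, with CKD 2 to 5 between 21.4 and 22.8, and 33.1 FPKM in Sham 1, with Sham 2 to 5 between 22.2 and 24.9. Ppp3r1 was at 47.6 FPKM in Sham 1, against 35.3 to 37.7. Nfatc4 was at 2.39 FPKM in Sham 1, against 1.32 to 1.58. Rcan1 at 157 FPKM in CKD 2 was not among them.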

How the results depend on the processing

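The direction and the call of Tbc1d10c were the same in all 19 alternatives, with log2 differences from -1.10 to -0.90 and adjusted p from 0.00056 to 0.00833. None of the other 9 members passed in any alternative that tested it; Nfatc4 was not tested with a mean of at least 5 FPKM. Ppp3ca, Ppp3r1 and Nfatc1 changed sign near 0: Ppp3ca was at -0.0027 with quantile normalization and -0.0034 without CKD 4, Ppp3r1 at 0.0116 without Sham 1 and Nfatc1 at -0.0281 without Sham 4. With 1 library left out they ranged from -0.0034 to 0.0450, from -0.126 to 0.0116 and from -0.0281 to 0.111. The difference of Rcan1 ranged from 0.27 to 0.73, that of Ppp3cb from -0.21 to -0.06, that of Nfatc4 from 0.02 to 0.18 and that of Rcan2 from 0.0088 to 0.0744. Cib1 passed in all 19, Csrp3 lost its call in 12 (3 of them the fits with no filter on the mean, quantile normalization and no variance trend), Mef2a in 13, Mapk14 in 4 and Nppb in 1. Over all genes, leaving out 1 library gave 202 to 385 genes higher and 131 to 290 lower, against 369 and 247 with all; without CKD 2, CKD 5, Sham 2, Sham 3 or Sham 4 both counts, and without CKD 3 the lower count (155), moved by more than 1.5 times. No paired analysis was possible because the labels do not pair mice across groups, and the numbers 1 to 5 only follow the order of the libraries. The cause of these differences was not tested. The read number behind each value is unknown, so no counting error could be given.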
